A study of Mus musculus with 4 samples.

Results

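The 40 genes described here drive or mark the cell division cycle. They were taken by symbol from a fixed list, and all 40 were found among the 22609 genes of the count table and passed the filter on low counts. They fall into 8 G1 cyclins and cyclin-dependent kinases (CDKs), 4 G1/S regulators, 12 replication genes and 16 mitotic genes. Their counts in a library ran between 75 and 12272.

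The RNA came from whole mouse testes on postnatal day 3, in 2 mutant and 2 wild-type libraries. In the mutant libraries the thyroid hormone receptor alpha 1, the product of Thra, was of a dominant-negative form, which blocks the normal receptor. This form comes from the TRαAMI allele, and the mice were bred from TRαAMI heterozygotes and AmhCre carriers. AmhCre drives Cre recombinase from the promoter of Amh, and the mutation is limited by design to Sertoli cells, the somatic nurse cells of the seminiferous tubules. The wild-type libraries carried the wild-type receptor, and whether these controls carried AmhCre is not stated in the labels. Both groups were of a mainly C57BL/6J background. Nothing in the labels says whether a library came from 1 animal or from a pool, so the errors below rest on these libraries and may not measure the spread between animals. The SE of a gene comes from a fit that also draws on the spread of other genes. Counts per gene do not show the receptor's sequence, so the genotype labels could not be checked from them. The study examined target genes of thyroid hormone in such testes. Values are read counts relative to library size (CPM), scaled between libraries by the trimmed mean of M values, and pairs of values are given as replicate 1 and then replicate 2.

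A dividing cell passes from G1 into S phase when cyclins D and E, bound to CDKs, release E2F transcription factors that switch on genes for DNA replication. Later in the cycle cyclins A and B activate Cdk1, and a separate gene programme builds the spindle and ends mitosis. In the newborn mouse testis Sertoli cells are still dividing, and germ cells leave their arrest in the first days after birth. Thyroid hormone is known to slow Sertoli cell division and to promote maturation, and hypothyroidism in newborn rodents prolongs that division.

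The promoter windows of these genes differed in their share of motifs by phase group. A match to RefSeq promoter windows of 300 bases (250 before and 50 after the start, build GRCm38.p6) gave 38 windows for 33 of the 40 genes. The E2F motif was searched as TTTCCCGC, TTTCGCGC, TTTGCCGC or TTTGGCGC, the CHR element (the cell cycle genes homology region of G2 and mitotic genes) as TTTGAA, and the box bound by the factor NF-Y as CCAAT, each on both strands. Neighbouring matches can overlap, as a pair of CCAAT boxes does in the Ube2c window below and a pair of E2F motifs in the Mcm6 window. An E2F motif stood in 6 of 12 replication windows, 2 of 7 G1/S windows (28.6%), 1 of 6 G1 windows (16.7%) and 1 of 13 mitotic windows (7.69%), against 2.26% of all 32851 windows. A CHR element stood in 10 of 13 mitotic windows (76.9%), 3 of 7 G1/S windows (42.9%), 1 of 12 replication windows (8.33%) and 0 of 6 G1 windows, against 17.9% of all windows. CCAAT stood in 12 of 13 mitotic windows (92.3%), 9 of 12 replication windows, 4 of 7 G1/S windows (57.1%) and 2 of 6 G1 windows (33.3%), against 37.4% of all windows. Windows were counted, not genes, and 5 genes gave more than 1 window. The 7 G1/S windows came from 4 genes, and the 6 G1 windows from 5 of 8 genes. By gene, E2f2 and E2f3 held an E2F motif, and E2f2, E2f3 and Skp2 a CHR element, in at least 1 window. The windows were not matched for base composition. A match describes letters only and shows no binding.

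One window is printed per group to show the motifs of its programme: the gene with the smallest p among those whose single window held E2F (CHR for mitosis). No G1/S regulator met this. Capitals mark the E2F, CHR and CCAAT matches on either strand. Cdk2 (chr10:128705002-128705301, minus strand) stands for the G1 cyclins and CDKs, Mcm6 (chr1:128359656-128359955, minus strand) for replication and Ube2c (chr2:164769679-164769978, plus strand) for mitosis.
Cdk2: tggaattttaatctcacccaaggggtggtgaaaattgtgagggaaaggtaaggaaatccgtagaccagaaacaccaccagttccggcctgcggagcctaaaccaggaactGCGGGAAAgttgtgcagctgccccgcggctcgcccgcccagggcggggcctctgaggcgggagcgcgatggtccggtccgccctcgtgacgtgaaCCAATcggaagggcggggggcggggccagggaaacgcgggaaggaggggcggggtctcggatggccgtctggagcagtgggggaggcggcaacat
Mcm6: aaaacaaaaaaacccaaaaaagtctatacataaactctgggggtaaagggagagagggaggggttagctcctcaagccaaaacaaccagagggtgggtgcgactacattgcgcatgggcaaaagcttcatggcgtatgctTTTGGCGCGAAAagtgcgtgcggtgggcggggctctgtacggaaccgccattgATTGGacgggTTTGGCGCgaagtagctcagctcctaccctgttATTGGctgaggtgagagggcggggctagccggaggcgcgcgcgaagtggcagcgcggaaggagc
Ube2c: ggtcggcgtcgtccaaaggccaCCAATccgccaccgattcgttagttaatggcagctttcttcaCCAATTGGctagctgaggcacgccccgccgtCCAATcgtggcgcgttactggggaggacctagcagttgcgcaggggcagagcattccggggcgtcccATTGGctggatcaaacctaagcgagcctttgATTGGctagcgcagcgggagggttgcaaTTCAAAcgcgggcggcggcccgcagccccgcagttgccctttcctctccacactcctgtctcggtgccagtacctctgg
The Cdk2 window held 1 E2F motif and 1 CCAAT box. Mcm6 held 3 E2F motifs and 2 CCAAT boxes, and Ube2c held 1 CHR element with 6 CCAAT boxes and no E2F motif.

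**Figure D1:**
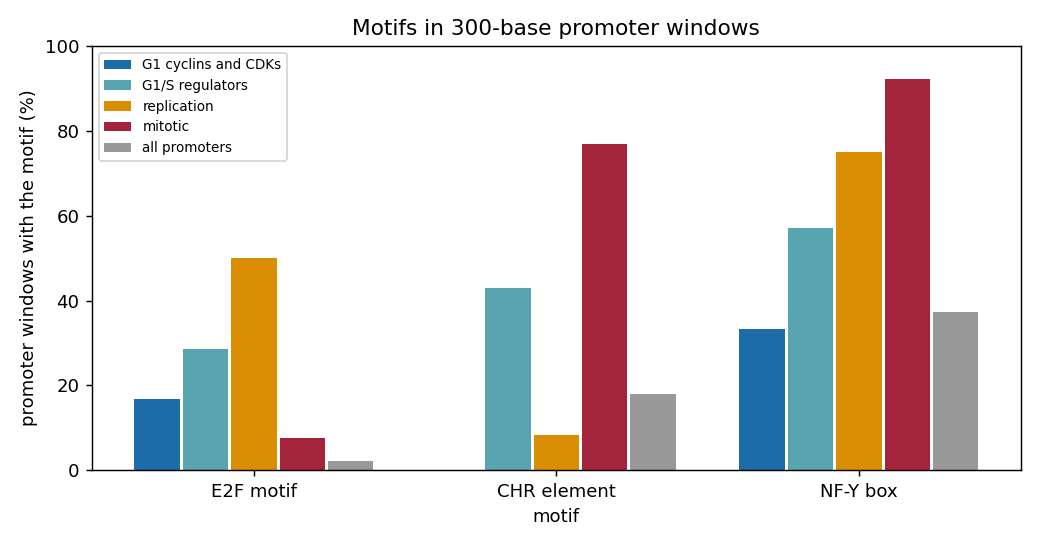
Share of 300-base promoter windows (vertical axis, percent) that hold each of 3 motifs (horizontal axis), by phase group of the cell cycle genes and for all promoters (grey). The E2F motif is most frequent in replication windows, at 6 of 12, and the CHR element in mitotic windows at 76.9%. Windows are counted, not genes, and 5 genes gave more than 1 window.

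None of the 40 genes passed the test between mutant and wild-type testes, and their fold changes were small. Over all 14788 tested genes, 5.67% were called by edgeR's quasi-likelihood test, 3.15% as higher and 2.52% as lower in mutant testes. An unadjusted p below 0.05 was reached by 6 of the 40 genes, against 25.5% of all genes. DESeq2 called 2 of the 40, both D cyclins, against 6.94% of all genes, and limma voom called none. The log2 fold changes of the 40 genes, mutant minus wild type, ran between -0.44 and 0.38 with a median of -0.04, beside a median of -0.006 over all tested genes. The 95% intervals of 33 of the 40 lay wholly within 0.5 of zero on the log2 scale, against 6688 of all 14788 tested genes. The median interval width was 0.475 for the 40 genes and 0.623 over all tested genes. Cdk6 was the exception to intervals within 1, and it was also the gene with the lowest level. These are bulk libraries, in which fewer cells of a type and less RNA per cell cannot be told apart.

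**Figure D2:**
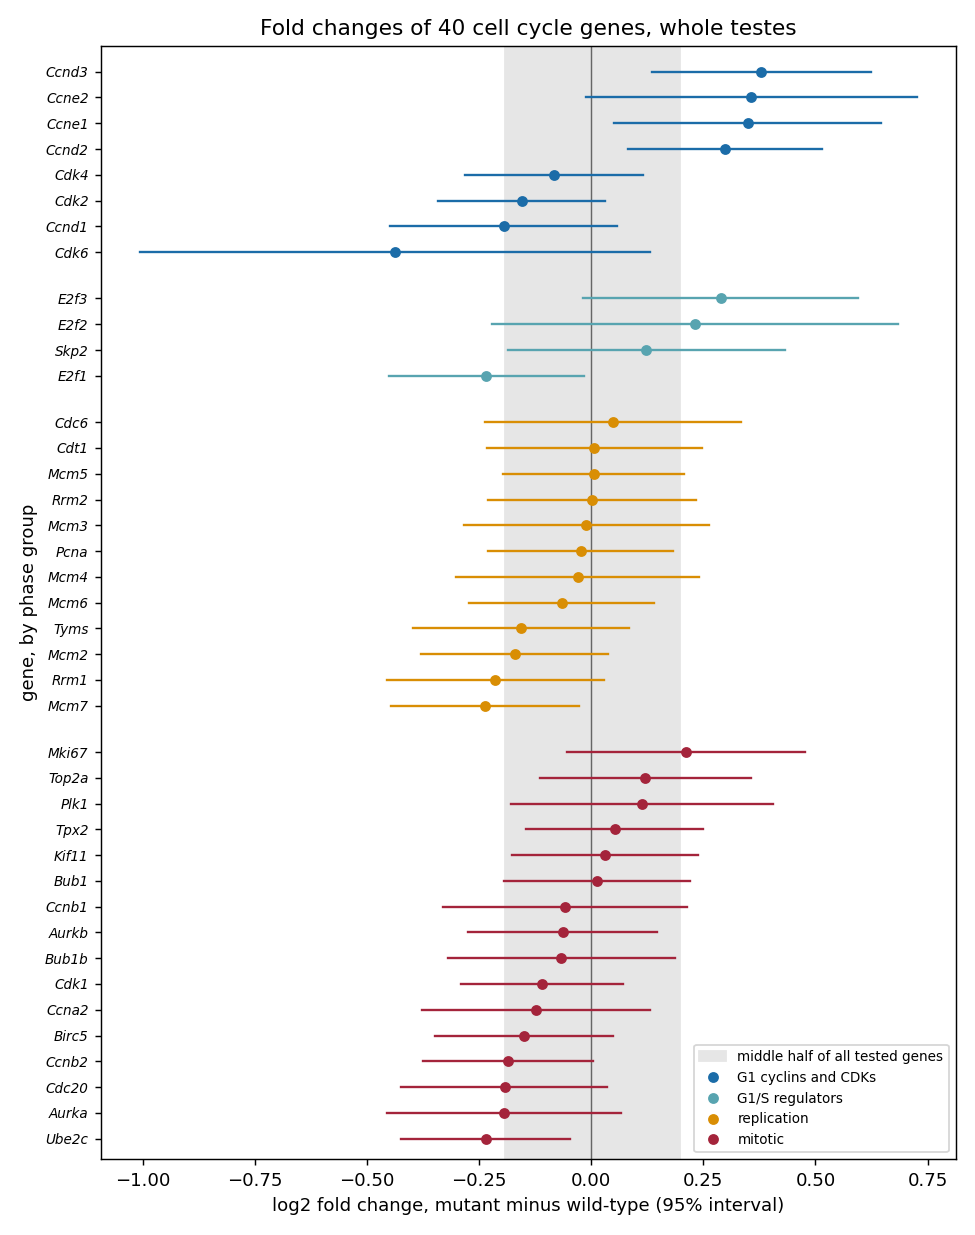
Log2 fold change, mutant minus wild type (horizontal axis), of the 40 genes, sorted within each phase group, with 95% intervals from the fit over all genes. The grey band is the interquartile range of all tested genes. Ccnd3 is highest at 0.38 and Cdk6 lowest at -0.44, and replication and mitotic genes lie between -0.24 and 0.21.

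By role, the median log2 fold change was 0.11 for the 8 G1 cyclins and CDKs, 0.18 for the 4 G1/S regulators, -0.03 for the 12 replication genes and -0.06 for the 16 mitotic genes. Taken as 12 genes, the G1 cyclins, CDKs and G1/S regulators had a median of 0.18, which was -0.04 without wild-type replicate 2. Libraries of the 2 groups did not overlap in 8 of 8 G1 cyclins and CDKs, 2 of 4 G1/S regulators, 4 of 12 replication genes and 6 of 16 mitotic genes, against 57.3% of all tested genes. Over the 40 genes, both mutant libraries were higher in 6 and lower in 14, against 28.3% and 29.0% of all genes. The difference between groups of genes was not tested.

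The G1 cyclins and their kinases pointed different ways. Cyclins D2, D3, E1 and E2 were read higher in both mutant libraries, and cyclin D1, Cdk4, Cdk6 and Cdk2 lower in both, with none called. Ccnd3, one of the D cyclins that bind Cdk4 and Cdk6 (mm9 plus strand of chromosome 17, 47642000 to 47736632), had 302 and 254 CPM in mutant testes, against 224 and 203 CPM in wild-type testes. Its log2 fold change was 0.38 ± 0.11 (SE), with an adjusted p of 0.0724 and a 95% interval of 0.14 to 0.62. This was the smallest adjusted p of the 40 genes. Ccnd3 passed the threshold at 0.50 without mutant replicate 2 (adjusted p = 0.0180) and at 0.38 by DESeq2 (adjusted p = 0.0237), and it was at 0.25 without mutant replicate 1. Its exons share 353 bases with Bysl on the other strand, 15.7% of the exon length, and Bysl itself was at -0.08.

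Ccnd2, whose loss leaves mice with small testes (chromosome 6, 127075797 to 127101066, minus strand), stood at 852 and 783 CPM in mutant testes, against 648 and 682 CPM in wild-type testes. The log2 fold change of 0.30 ± 0.09 was not called by edgeR (adjusted p = 0.0992), while DESeq2 called it (adjusted p = 0.0273). Ccnd1, the D cyclin most tied to growth factor signals, went the other way, with 62.4 and 75.5 CPM in mutant testes and 79.8 and 78.5 CPM in wild-type testes. Mutant replicate 1 held the lowest value, and the log2 fold change was -0.20 ± 0.11 (adjusted p = 0.308). Its exons share 818 bases, 21.3% of their length, with Oraov1 on the other strand, which itself was at 0.10. Summed over the 3 D cyclins, mutant libraries held 1216 and 1113 CPM and wild-type libraries 952 and 963 CPM. The groups did not overlap, which also held for 57.3% of all single tested genes. Ccnd2 held most of each sum, Ccnd1 went the other way, and edgeR called none of the 3.

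The E cyclins, which activate Cdk2 at the entry into S phase, lay on the same side as cyclins D2 and D3. Ccne1 was read at 29.2 and 28.0 CPM in mutant and 21.9 and 23.0 CPM in wild-type testes. Its log2 fold change of 0.35 ± 0.13 was not called (adjusted p = 0.143), with an interval of 0.05 to 0.65. Ccne2 had 18.8 and 22.5 CPM in mutant testes, against 16.3 and 16.2 CPM in wild-type testes (0.36 ± 0.16, adjusted p = 0.208). Ccne2 exons share 609 bases with Ints8 on the other strand.

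None of the 3 kinases of this group was called. Cdk4, the main partner of the D cyclins, was at 457 and 490 CPM in mutant and 498 and 505 CPM in wild-type testes, a log2 fold change of -0.08 ± 0.09 (adjusted p = 0.586). Its exons share 604 bases, 18.6% of their length, with Tspan31 on the other strand. Cdk2, the partner of the E cyclins, was at 124 and 125 CPM in mutant and 136 and 141 CPM in wild-type testes (-0.16 ± 0.08, adjusted p = 0.273). Cdk6, the other D cyclin kinase, was scarce, at 7.10 and 5.30 CPM in mutant and 9.01 and 7.35 CPM in wild-type testes. Its interval of -1.01 to 0.13 is the widest of the 40, and it was not called (adjusted p = 0.310).

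**Figure D3:**
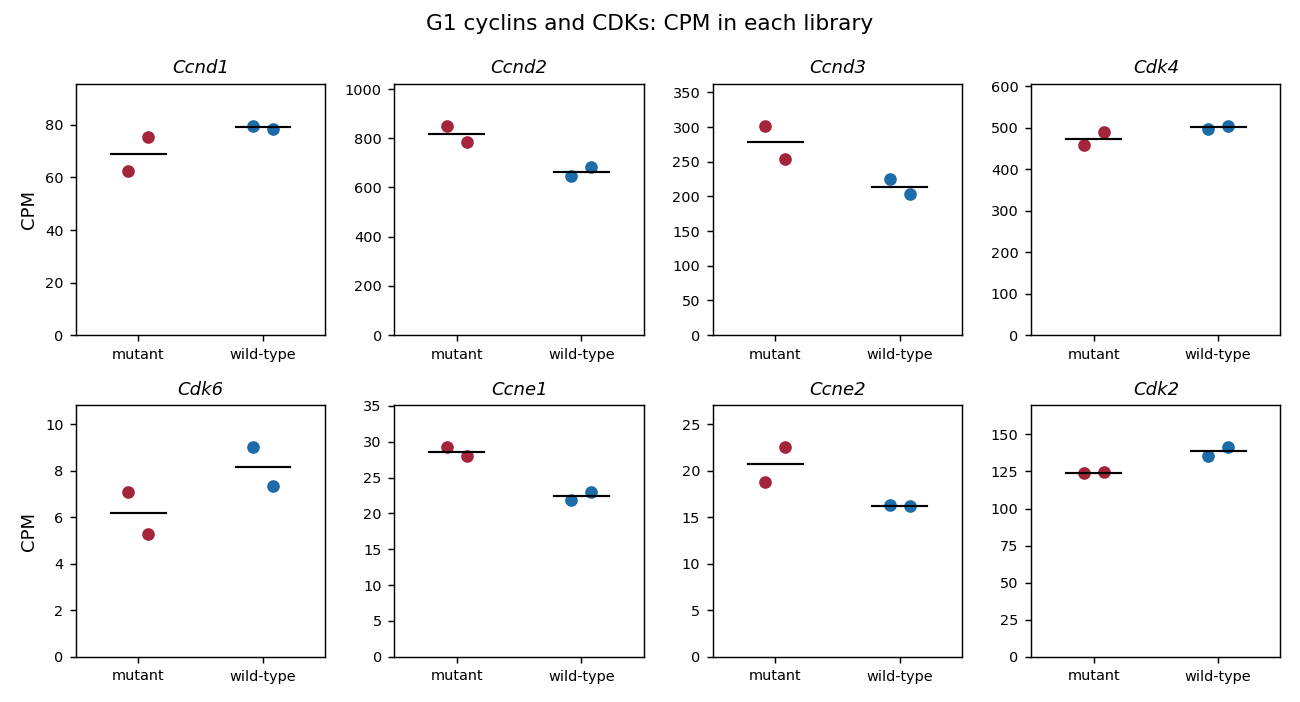
CPM (vertical axes, from 0) of the 8 G1 cyclins and CDKs in each library, with mutant libraries left and wild-type libraries right and a bar at each mean. Ccnd2, Ccnd3, Ccne1 and Ccne2 are higher in both mutant libraries and Ccnd1, Cdk4, Cdk6 and Cdk2 lower in both, none of them called.

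Levels between genes were compared as CPM per kilobase of exon, with exon lengths from GENCODE M1. On this scale Cdk4 had the highest mean of the 40 over the 4 libraries at 150.0, followed by Ccnd2, then Ccnd3 at 109 and Ccnb2, a mitotic cyclin, at 83.0. Cdk4 per kilobase was at 141 and 151 in mutant libraries and at 153 and 155.5 in wild-type libraries. Ccnd2 per kilobase was at 149 and 137 in mutant libraries and at 114 and 120 in wild-type libraries, so it stood above Cdk4 in mutant replicate 1. The lowest means were 1.93 for Cdk6 and 3.92 for E2f2. Cdc6 at 5.27 and Ccne2 at 5.28 came next, and their order differed between the groups: Ccne2 was above Cdc6 in both mutant libraries and below it in both wild-type libraries. Ccnd2 made up 49.9% and 50.9% of the D cyclin level per kilobase in mutant libraries and 48.6% and 52.0% in wild-type libraries. Ccnd1 made up 5.43% and 7.29% in mutant libraries and 8.89% and 8.90% in wild-type libraries, and Ccnd3 supplied the rest.

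Of the G1/S regulators, E2f1 was read lower and E2f3 higher in both mutant libraries. E2f1, an activator of S-phase genes, had 71.8 and 80.4 CPM in mutant testes, against 89.3 and 89.9 CPM in wild-type testes, and a log2 fold change of -0.23 ± 0.09 (adjusted p = 0.171). E2f3, a second activator, had 40.7 and 41.8 CPM in mutant testes and 37.3 and 29.9 CPM in wild-type testes (0.29 ± 0.13, adjusted p = 0.220). E2f2, the third, stood at 20.2 and 21.3 CPM in mutant testes and 20.9 and 14.1 CPM in wild-type testes. Skp2, which marks the CDK inhibitor p27 for destruction, stood at 63.9 and 61.5 CPM in mutant testes and 65.2 and 49.5 CPM in wild-type testes. For both E2f2 and Skp2 the groups overlapped, and wild-type replicate 2 alone held the low value. The log2 fold change of E2f2 was 0.23 ± 0.20 (adjusted p = 0.501), and -0.01 without wild-type replicate 2. That of Skp2 was 0.12 ± 0.13 (adjusted p = 0.609), and -0.06 without wild-type replicate 2.

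Of the replication genes none was called, with log2 fold changes between -0.24 and 0.05 and every 95% interval between -0.46 and 0.33. Mcm2 to Mcm7 encode the 6 subunits of the replicative helicase. Summed, they held 1012 and 1092 CPM in mutant libraries and 1184 and 1039 CPM in wild-type libraries, and the groups overlapped. Mcm7 had the lowest fold change of the replication genes, with 107 and 114 CPM in mutant testes and 138 and 124 CPM in wild-type testes. Its log2 fold change of -0.24 ± 0.09 was not called (adjusted p = 0.155), and its locus also holds exons of Ap4m1, Cops6, Mir25 and Mir93. Mcm2 was read at 186 and 198 CPM in mutant and 228 and 204 CPM in wild-type testes (-0.17 ± 0.09, adjusted p = 0.280). Mcm3, Mcm4, Mcm5 and Mcm6 overlapped between groups, with log2 fold changes between -0.07 and 0.01. The Mcm6 promoter printed above, with 3 E2F motifs, belongs to a gene at 249 and 268 CPM in mutant and 284 and 257 CPM in wild-type testes.

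The loaders of that helicase, Cdc6 and Cdt1, had log2 fold changes of 0.05 ± 0.12 and 0.01 ± 0.10. Pcna, the sliding clamp of the polymerases, had 88.1 and 83.6 CPM in mutant testes, against 84.4 and 90.1 CPM in wild-type testes, a log2 fold change of -0.02 ± 0.09 with an interval of -0.23 to 0.18. Among the genes that supply nucleotides, Rrm1, the large subunit of ribonucleotide reductase, was read at 173 and 198 CPM in mutant and 231 and 199 CPM in wild-type testes (-0.21 ± 0.11, adjusted p = 0.247). Rrm2, the small subunit that rises and falls with S phase, was at 80.4 and 91.9 CPM in mutant testes and 89.6 and 82.7 CPM in wild-type testes. The Rrm2 means were 86.2 ± 8.12 CPM in mutant and 86.2 ± 4.86 CPM in wild-type testes (SD, n = 2 each). Tyms, thymidylate synthase, stood at 72.5 and 84.1 CPM in mutant and 83.9 and 91.2 CPM in wild-type testes (-0.16 ± 0.10, adjusted p = 0.386).

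Mitotic genes likewise showed no called change, with log2 fold changes between -0.24 and 0.21 and every 95% interval between -0.46 and 0.48. In linear terms these interval ends are ratios of 0.729 and 1.39, mutant over wild type. Summed over the 16 genes, mutant libraries held 2064 and 2117 CPM, between the 2237 and 2024 CPM of the wild-type libraries. Mki67, the gene of the proliferation antigen Ki-67, was read at 235 and 270 CPM in mutant and 239.5 and 197 CPM in wild-type testes. The groups overlapped and the log2 fold change was 0.21 ± 0.12 (adjusted p = 0.294). Top2a, the topoisomerase that untangles chromosomes, was at 285 and 320 CPM in mutant testes and 298 and 258 CPM in wild-type testes.

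Of the cyclins and kinase that start mitosis, Cdk1 had 177 and 177 CPM in mutant testes, against 188 and 194 CPM in wild-type testes (-0.11 ± 0.08, adjusted p = 0.418). Ccnb2 had 117 and 123 CPM in mutant and 134 and 138 CPM in wild-type testes, with a log2 fold change of -0.19 ± 0.08 (adjusted p = 0.207). In both genes the mutant libraries lay below the wild-type libraries. Ccnb1 and Ccna2, the other B cyclin and the A cyclin of S and G2 phase, overlapped between groups at -0.06 ± 0.12 and -0.12 ± 0.11.

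Ube2c, the ubiquitin-conjugating enzyme of the anaphase-promoting complex, which ends mitosis, had 114.5 and 110 CPM in mutant testes and 134 and 130 CPM in wild-type testes. Its log2 fold change was -0.24 ± 0.08 with an interval of -0.42 to -0.05, and it was not called (adjusted p = 0.124). Cdc20, the activator of the complex, had 109 and 106 CPM in mutant and 132 and 113 CPM in wild-type testes (-0.19 ± 0.10, adjusted p = 0.2685). Ube2c exons share 592 bases, 22.8% of their length, with Tnnc2 on the other strand. Tnnc2, a skeletal muscle troponin gene, was at 294 and 76.3 CPM in mutant testes and at 0.751 and 0.294 CPM in wild-type testes, and its part in the Ube2c value was not tested.

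The spindle genes split around zero. Aurka and Birc5, a kinase of the spindle poles and survivin of the chromosomal passenger complex, were read lower in both mutant libraries at -0.19 ± 0.11 and -0.15 ± 0.09. Aurkb, the kinase of the passenger complex, was at -0.06 ± 0.09. Plk1, Tpx2 and Kif11, a mitotic kinase, a spindle assembly factor and a motor protein, were at 0.11 ± 0.13, 0.05 ± 0.09 and 0.03 ± 0.09. Bub1 and Bub1b of the spindle checkpoint were at 0.01 ± 0.09 and -0.07 ± 0.11. Adjusted p-values of these 8 genes ran from 0.319 to 0.943.

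**Figure D4:**
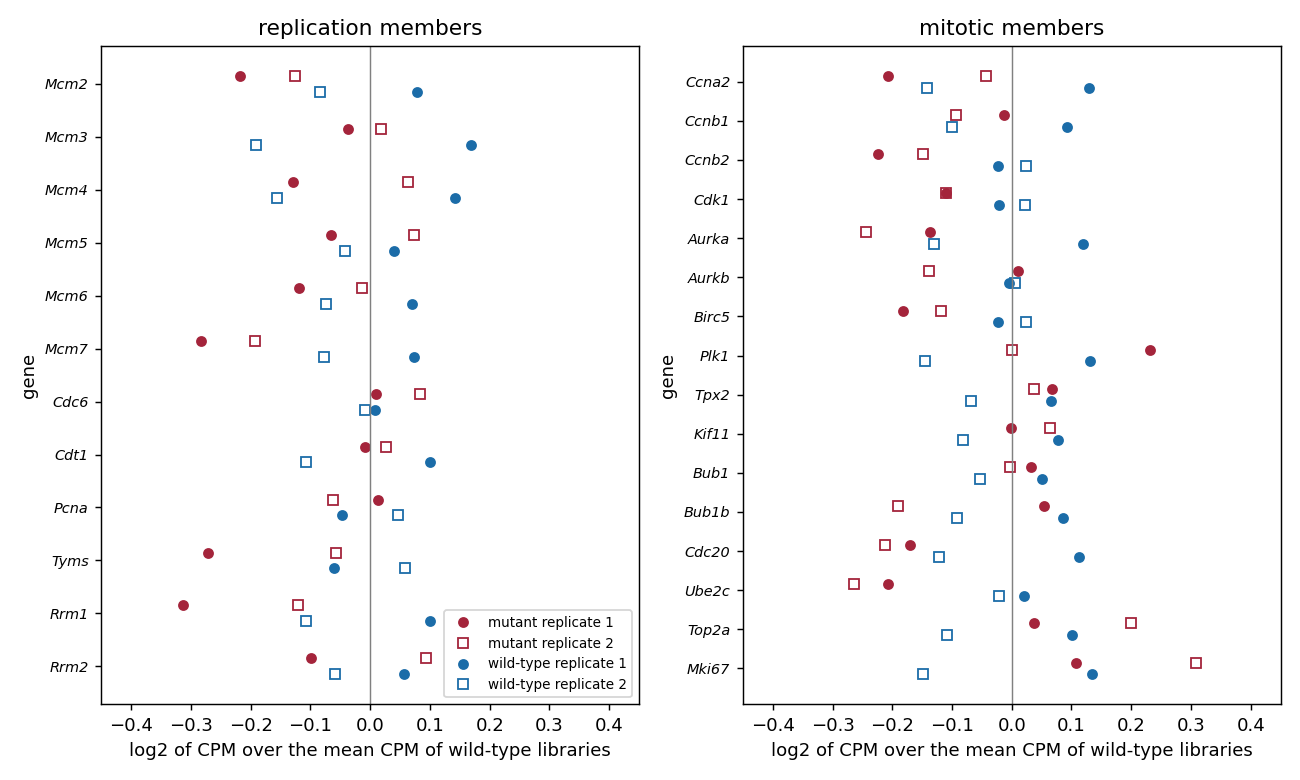
CPM of each replication gene (left) and mitotic gene (right) in each library, as log2 over the mean of the wild-type libraries (horizontal axis), with mutant libraries in red and wild-type libraries in blue, circles for replicate 1 and squares for replicate 2. Wild-type replicate 1 lies above wild-type replicate 2 in 10 of 12 replication and 12 of 16 mitotic genes. Over all 14788 tested genes this holds in 7462.

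Gaps between replicates often exceeded the gap between groups, both in these genes and over all tested genes. Among the 40 genes this held in 21 for the wild-type pair and in 26 for either pair. A gap between single libraries also varies more than a difference of group means. Wild-type replicate 1 was above wild-type replicate 2 in 10 of 12 replication genes and 12 of 16 mitotic genes, with median log2 ratios of 0.15 and 0.17. Over all 14788 tested genes this held in 7462, with a median of 0.003. Mutant replicate 1 was above mutant replicate 2 in 1 of 12 replication genes and 10 of 16 mitotic genes, with medians of -0.10 and 0.03. Over all tested genes it was above in 7460, with a median of 0.003. The wild-type gap exceeded the absolute fold change between groups in 7 of 12 replication, 11 of 16 mitotic, 3 of 4 G1/S and 0 of 8 G1 genes, against 6562 of all 14788 genes. Counting the gap of either pair, these were 9 of 12, 12 of 16, 3 of 4 and 2 of 8, against 8364 of all genes. With wild-type replicate 2 left out, the median fold change between groups was -0.12 for replication and -0.11 for mitotic genes. With wild-type replicate 1 left out, it was 0.02 for both.

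Other genes of the cycle gave calls in 2 places. Among 35 further replication genes edgeR called 2 as lower and 0 as higher, beside 2.52% of all genes that fell, and the list's median was -0.17. Both mutant libraries were lower in 22 of the 35, against 29.0% of all genes. An unadjusted p below 0.05 was reached by 13 of the 35, all lower, against 25.5% of all genes in either direction. Gmnn, geminin, which binds Cdt1 and blocks a second round of replication, had 49.2 and 60.8 CPM in mutant testes, against 80.7 and 86.8 CPM in wild-type testes. Its fall of -0.60 ± 0.12 (log2) had an adjusted p of 0.0309. Dut, which clears dUTP from the nucleotide pool, had 120.5 and 138.5 CPM in mutant testes and 169 and 181 CPM in wild-type testes, a fall of -0.43 ± 0.10 (adjusted p = 0.0431). The filter on low counts mattered to both, at adjusted p = 0.0507 for Gmnn and 0.0683 for Dut with no filter, and limma voom did not call Dut (adjusted p = 0.0538). Leaving out mutant replicate 1 or any 1 of the wild-type libraries gave 0 calls in this list, and leaving out mutant replicate 2 gave 5, all lower. Of 51 further mitotic genes none was called by edgeR, DESeq2 or limma voom, and the median was -0.06. An unadjusted p below 0.05 was reached by 7 of the 51, all lower, against the same 25.5%. Of 17 further G1 and G1/S genes none was called by edgeR or limma voom and 1 by DESeq2, and the median was 0.03. Among these 17, 6 had an unadjusted p below 0.05, 2 higher and 4 lower.

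CDK inhibitors and the retinoblastoma family, the brakes on this machinery, held 2 genes that rose, 1 that fell and 7 that were not called, beside 3.15% of all tested genes called higher and 2.52% called lower. Cdkn1a (p21) had 42.0 and 27.3 CPM in mutant testes and 16.45 and 15.7 CPM in wild-type testes, and its rise was 1.09 ± 0.21 in log2 (adjusted p = 0.0296). Cdkn1c (p57) had 244 and 188 CPM in mutant testes, against 119.5 and 91.8 CPM in wild-type testes, and rose by 1.03 ± 0.16 (adjusted p = 0.0166). Cdkn2a, which encodes both p16 and p19Arf, had 8.74 and 7.15 CPM in mutant and 21.7 and 19.4 CPM in wild-type testes, a fall of -1.39 ± 0.19 (adjusted p = 0.0104). Cdkn1b (p27), the inhibitor tied to the end of Sertoli cell division, was at 0.07 ± 0.10 and was not called (adjusted p = 0.707). With wild-type replicate 1 left out, adjusted p was 0.136 for Cdkn1a, 0.0675 for Cdkn1c and 0.0812 for Cdkn2a. With wild-type replicate 2 left out, it was 0.124 for Cdkn1a, 0.0792 for Cdkn1c and 0.0464 for Cdkn2a, and limma voom gave 0.0513 for Cdkn1a.

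Markers of cell types moved between the same libraries, and their part in the values above was not tested. The counts below stand beside 3.15% of all tested genes called higher and 2.52% called lower. The lists were chosen with earlier results of these data known, so setting counts beside shares is no test. Of 16 germ cell markers 13 fell and none rose. Their sums were 429 and 374 CPM in mutant libraries and 1129 and 747 CPM in wild-type libraries, and no marker was at 0. Without wild-type replicate 1, which held the highest sum, 3 of the germ cell markers fell. Of 14 Sertoli cell markers 3 fell, 1 rose and 10 were not called. Their median log2 fold change was -0.16, with 4 above and 10 below 0. Their sums were 5452 and 5598 CPM in mutant libraries and 6507 and 7067 CPM in wild-type libraries. Abundant genes weigh most in these sums. Aard held 646 and 748 CPM in mutant and 1227 and 1584 CPM in wild-type libraries. Clu, which was not called, held 1576 and 1584 CPM against 1902 and 2055 CPM. Of 10 macrophage markers 3 rose and none fell, with sums of 280 and 363 CPM in mutant and 193 and 214.5 CPM in wild-type libraries. The macrophage count was 1 by limma voom, with no filter on low counts, with library size alone, and without mutant replicate 2 or any 1 of the wild-type libraries, and it was 5 without mutant replicate 1. Of 9 skeletal muscle markers 7 rose, with sums of 2441 and 627 CPM in mutant libraries and 12.9 and 12.25 CPM in wild-type libraries, where Myog had no count. By limma voom 0 of the muscle markers were called, and leaving out wild-type replicate 1 gave 0 and wild-type replicate 2 gave 1. None of the 6 Leydig, 4 peritubular or 6 endothelial markers was called by edgeR. In each of these lists 1 marker had an unadjusted p below 0.05, against 25.5% of all genes. DESeq2 called 1 Leydig and 1 endothelial marker as higher and no peritubular marker, beside 6.94% of all genes called in either direction. Of 6 red blood cell markers 2 could be tested and neither was called, while Hba-a1 and Hba-a2 had no count.

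**Figure D5:**
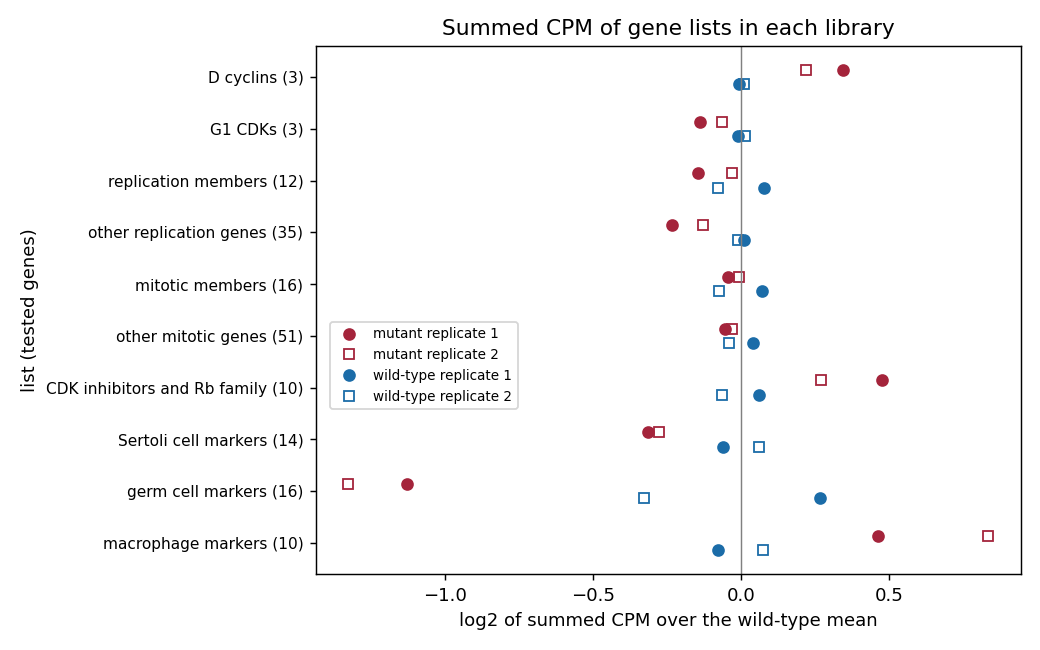
Summed CPM of gene lists in each library, as log2 over the wild-type mean (horizontal axis), with mutant libraries in red and wild-type libraries in blue. Sums of the 16 mitotic genes in mutant libraries, 2064 and 2117 CPM, lie between those of the wild-type libraries, while germ cell markers are lower in both mutant libraries, at 429 and 374 CPM, against 1129 and 747 CPM in wild-type libraries.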

How the data were processed

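Polyadenylated RNA of whole testes was sequenced as single-end reads of 100 bases, per the labels' protocols. The build is mm9 and the tools named are HTSeq, DESeq2, TopHat 1.4.0 and CASAVA 1.8.1, per the submitters' processing notes, which state no order here. The authors deposited 1 table, whose values are recorded as an expected count per gene since 5 lines below the genes hold percentages. Its gene values are whole numbers and sum to the total that the table itself gives for genes in all 4 libraries, so rounding changed nothing. How the counter treated strand, and which annotation it used, is not given in the sources used here. Whether reads over exon bases shared by genes were credited to a gene or set aside as ambiguous is therefore not known. In the annotation used here 11 of the 40 genes share exon bases with another gene.

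Gene counts summed to 11089136 and 15636832 in mutant replicates 1 and 2 and to 13228903 and 10230512 in wild-type replicates 1 and 2. Reads outside genes made up 17.3% and 14.4% of counted reads in mutant and 13.8% and 15.3% in wild-type libraries, ambiguous reads 0.602% to 0.726%, and neither class entered library sizes or tests. Replicates differed by more than sampling noise (chi-square per degree of freedom 10.5 within the mutant and 8.94 within the wild-type pair).

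The test was edgeR's quasi-likelihood F test (edgeR 4.0.16 under R 4.3.3), legacy and robust options off, with TMM normalisation, genotype alone in the model and edgeR's default filter (minimum count 10, minimum total 15). P-values were two-sided and adjusted by the Benjamini-Hochberg method over the 14788 tested genes, with calls made at an adjusted p below 0.05. The SE comes from the ratio of the log2 fold change to the root of F, and 95% intervals use the total degrees of freedom of the fit. The procedure was run on simulated data, with added changes larger than those of the 40 genes. That run does not show whether changes as small as theirs would be called. The genes and lists were chosen with earlier results of these data known, so the shares over all genes set beside their counts are no test. Among the 40 genes and the further cell cycle lists, full values are given for called genes, for the 4 smallest p in each group of the 40, and for Mki67, Pcna, the D cyclins, Cdk4 and Cdk1 in any case, and cell type markers are given as counts and sums. Positions and exon lengths are from GENCODE M1 (NCBIM37, mm9). Alternatives were limma voom (limma 3.58.1), DESeq2 1.42.0, legacy fits, other normalisations and filters, a block for the replicate number, and the removal of 1 library at a time.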

Additional observations from a re-analysis of the deposited data

How the results depend on the processing

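All 40 genes were run under 12 other settings, 480 values in all, of which 444 kept the direction and the side of the threshold. In 4 the call was gained: Ccnd3 and Ccnd2 by DESeq2, and Ccnd3 with the replicate block and without mutant replicate 2. The members called were thus 2 by DESeq2, 1 with the replicate block and 0 to 1 with a library left out, all of them G1 genes, and 0 under the other settings. The replicate numbers are shared in name only (correlation of deviations -0.03), and the block gave 853 calls over all genes. Over all genes 839 were called, 500 without a filter on low counts, and 74 (no wild-type replicate 1) to 1295 (no mutant replicate 2) with a library left out, where the lone library is assumed to vary like the other group. The median of the G1 genes and G1/S regulators ran between -0.036 and 0.28 with a library left out.

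Direction turned in 32 values of 17 genes, none called in either direction. With library size alone Mcm5 was at -0.0018, Cdt1 at -0.0012 and Rrm2 at -0.0059. With the replicate block Mcm3 was at 0.00094 and Rrm2 at -0.0013. With a library left out the values ran as follows: Mcm3 between -0.18 and 0.18, Mcm4 between -0.17 and 0.13, Plk1 between -0.0180 and 0.26, Bub1 between -0.0402 and 0.0645, Mcm5 between -0.0672 and 0.0723, Cdt1 between -0.0941 and 0.11, Pcna between -0.0739 and 0.0198, Rrm2 between -0.10 and 0.0924, Aurkb between -0.14 and 0.0099, Kif11 between -0.0480 and 0.11, Bub1b between -0.19 and 0.0516, Mcm6 between -0.14 and 0.0051, Ccna2 between -0.25 and 0.0171, Ccnb1 between -0.15 and 0.0412, E2f2 between -0.0113 and 0.55, Skp2 between -0.0607 and 0.34 and Tpx2 between -0.0162 and 0.12. The causes were not tested, beyond each such fit having fewer libraries. With 2 libraries a group the intervals are wide for scarce genes, and Cdk6 had only 75 to 120 counts a library.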
